A study of Drosophila melanogaster with 2 samples.

Results

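The 7 genes described here, kay, Jra, puc, msn, bsk, hep and slpr, encode central parts of the Jun N-terminal kinase (JNK) pathway of the fly. They were chosen by name from the 13968 annotated protein-coding genes on the chromosome arms. All 7 were found in the annotation, and each was examined from 5 kb upstream to 5 kb downstream of its gene body. These windows held 85 of the 29999 regions of the candidate list called on both replicates together, and 15 of the 2718 regions that passed the authors' reproducibility threshold. Of the 7 genes, 5 had at least 1 such peak in their window, and 3 (kay, puc and msn) had a peak at a start site of their own. The corresponding shares over all protein-coding genes were 23.1% with a peak in the window and 8.81% with a peak at an own start site. Of the 5 genes with a peak, 4 (kay, puc, msn and hep) are at least 10 kb long, and 48.1% of all such long genes had a peak in the window. The members were picked with results of these data known, so their counts are a description.

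The samples were whole larvae of Drosophila melanogaster in the third instar, at the wandering stage and with both sexes pooled, from the strain dl-small-GFP. These flies carry a transgene in which GFP is fused to the C-terminus of the dl-RC isoform of Dorsal, an NF-kB family transcription factor. Chromatin was sonicated and recovered with an antibody to GFP, although 1 label field names dl as the antibody, and 2 biological replicates (numbers 3 and 1) formed a single group without a second condition. Whole animals mix all tissues, so a peak cannot be placed in a cell type, and the promoter that drives the transgene is not given in the sources used here. The labels name a control experiment, which entered through the authors' region calling and was not analysed here by itself.

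In the JNK pathway, a chain of protein kinases carries signals of stress, wounding and epithelial movement to the nucleus. The kinases Misshapen (msn), Slipper (slpr), Hemipterous (hep) and Basket (bsk) act in that order, and Basket is the JNK itself. Basket phosphorylates Jun (Jra), which pairs with Fos (kay) in the transcription factor AP-1. Puckered (puc) is a phosphatase that switches Basket off and is itself a transcriptional target of AP-1, so it serves both as the brake and as the classical reporter of the pathway. In larvae and pupae the pathway is known for wound closure, for the fusion of the thorax from the imaginal discs and for cell death in damaged discs.

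Sequences of 11 of the 13 peaks that lie on or inside kay, puc, msn and hep are shown because they differ in a short repeat, GAGAGAG, that is read on either strand. They are in dm6, on the plus strand, 5′ to 3′, and capitals mark matches to GAGAGAG, which reads CTCTCTC where the repeat is on the other strand, and to TGANTCA, the AP-1 recognition sequence. Bases of annotated untranslated exons were left out, which shortened the kay-RA/RG and msn promoter peaks. The kay-RB promoter peak, the puc intron peak near position 8118804 and the msn intron 2 peak hold no such match and carry no capitals.
kay peak at lncRNA:CR46110, chr3R:29774519-29774722: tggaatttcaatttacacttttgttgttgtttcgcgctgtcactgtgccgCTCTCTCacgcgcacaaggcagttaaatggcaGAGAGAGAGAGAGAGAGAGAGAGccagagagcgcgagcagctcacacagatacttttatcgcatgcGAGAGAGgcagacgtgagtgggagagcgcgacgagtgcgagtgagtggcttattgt
kay peak upstream of kay-RA/RG, chr3R:29772054-29772177: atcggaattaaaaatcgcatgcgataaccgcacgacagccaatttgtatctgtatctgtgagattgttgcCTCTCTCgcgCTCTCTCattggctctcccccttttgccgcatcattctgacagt
kay-RA/RG promoter peak, without exon bases, chr3R:29772821-29772891: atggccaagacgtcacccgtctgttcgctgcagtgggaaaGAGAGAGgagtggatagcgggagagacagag
kay-RB promoter peak, chr3R:29782360-29782603: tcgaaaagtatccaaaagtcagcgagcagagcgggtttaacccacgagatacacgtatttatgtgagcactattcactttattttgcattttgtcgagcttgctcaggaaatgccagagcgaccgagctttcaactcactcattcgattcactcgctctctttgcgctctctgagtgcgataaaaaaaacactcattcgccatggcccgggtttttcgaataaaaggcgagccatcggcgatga
puc-RB upstream promoter peak, chr3R:8106172-8106297: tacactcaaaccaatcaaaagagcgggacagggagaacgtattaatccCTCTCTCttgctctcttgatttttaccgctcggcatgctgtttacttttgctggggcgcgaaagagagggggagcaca
puc peak at lncRNA:CR44331, chr3R:8114111-8114354: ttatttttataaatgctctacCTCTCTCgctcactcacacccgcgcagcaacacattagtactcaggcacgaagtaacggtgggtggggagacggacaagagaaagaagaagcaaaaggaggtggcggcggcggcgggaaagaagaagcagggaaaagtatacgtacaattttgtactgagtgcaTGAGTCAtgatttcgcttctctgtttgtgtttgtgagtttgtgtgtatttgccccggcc
puc intron 3 peak, lower signal, chr3R:8118682-8118925: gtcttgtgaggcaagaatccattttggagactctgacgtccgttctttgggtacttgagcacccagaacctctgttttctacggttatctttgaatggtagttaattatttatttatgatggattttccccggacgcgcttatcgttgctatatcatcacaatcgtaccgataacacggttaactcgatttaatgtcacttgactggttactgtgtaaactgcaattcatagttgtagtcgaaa
puc intron 3 peak, higher signal, chr3R:8119963-8120081: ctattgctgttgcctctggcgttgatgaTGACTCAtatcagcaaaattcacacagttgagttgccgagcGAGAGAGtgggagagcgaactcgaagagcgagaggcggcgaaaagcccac
msn-RF promoter peak, without exon bases, chr3L:2585961-2586036: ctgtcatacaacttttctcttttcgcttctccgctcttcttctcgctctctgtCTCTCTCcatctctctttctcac
msn intron 2 peak, chr3L:2583273-2583516: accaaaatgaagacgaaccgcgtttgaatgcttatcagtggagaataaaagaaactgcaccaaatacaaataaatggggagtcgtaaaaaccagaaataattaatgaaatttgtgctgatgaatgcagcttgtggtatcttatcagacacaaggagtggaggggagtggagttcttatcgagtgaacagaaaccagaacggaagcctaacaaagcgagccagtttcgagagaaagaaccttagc
hep intron 1 peak, chrX:13087580-13087823: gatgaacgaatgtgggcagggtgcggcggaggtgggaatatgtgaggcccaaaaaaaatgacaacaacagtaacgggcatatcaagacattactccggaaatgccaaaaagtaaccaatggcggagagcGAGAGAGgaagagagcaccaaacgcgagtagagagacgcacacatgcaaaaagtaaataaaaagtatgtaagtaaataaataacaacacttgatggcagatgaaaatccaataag

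Each region carries a signal, the authors' enrichment of ChIP over control, and regions were ranked by it within each list, with rank 1 as the highest signal. Ranks cover the chromosome arms, with 29970 regions in the pooled candidate list. The thresholded list held 2690 regions on the arms, with signals of 73.3 and above and a median of 118.7. List A and list B each rest on a single replicate, but nothing in the sources used here says which is which. Signals were not normalised between lists, so lists are compared by rank. In the following, peak means a region of the thresholded list, and candidate means any region of the pooled list.

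kay, which encodes Fos (FBgn0001297, dm6 chr3R:29765995-29794113, plus strand), had 4 peaks among 24 candidates in its window, all 4 inside the gene body. The strongest, chr3R:29774519-29774722, ranked 12 in list A with a signal of 376.4, ranked 12 in list B with a signal of 556.0, and ranked 12 in the pooled list with a signal of 886.9. Its summit lay 428 bp downstream of the start of lncRNA:CR46110, a non-coding gene inside kay. The same summit is in intron 1 of the isoforms kay-RA, kay-RD and kay-RG, 1731 bp downstream of the shared start of kay-RA and kay-RG. Its sequence, printed first above, is the one with an uninterrupted run of GA repeats. With overlapping matches counted, 11 matches to GAGAGAG lay within 100 bp of the summit, most of them in that run.

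A pair of further kay peaks flanked the start shared by kay-RA and kay-RG at 29772892. The promoter peak, chr3R:29772821-29772913, had its summit 4 bp downstream of that start and ranked 361 in list A (signal 120.5) and 280 in list B (signal 174.5), with a pooled signal of 274.5. The other, chr3R:29772054-29772177, lay 768 bp upstream, in intron 1 of kay-RD, and ranked 205 in list A (signal 155.4) and 249 in list B (signal 183.6), with a pooled signal of 319.4. Both single-replicate lists therefore placed the upstream intronic peak above the promoter peak. The fourth peak, chr3R:29782360-29782603, lay 127 bp upstream of the start of kay-RB and was the weakest of the 15, with a pooled signal of 76.9 at rank 2501 and ranks of 2402 in list A and 2590 in list B.

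The 4 annotated start sites of kay differed in what lay within 500 bp of them. The starts of kay-RA/RG and kay-RB had a peak each. The first start, that of kay-RD, had a candidate 8 bp downstream that did not pass, with a signal of 49.0 at rank 5180 in the pooled list. That start was higher in list B, where its best region ranked 2796 with a signal of 47.4, than in list A, where it ranked 17922 with a signal of 12.7. The most downstream start, that of kay-RF, had no region in any of the lists within 500 bp, and the nearest pooled candidate lay at -3424 bp, that is upstream. Just under the threshold, an intergenic candidate 1853 bp upstream of kay-RD had a pooled signal of 73.0 at rank 2705, and its ranks were 10712 in list A and 1658 in list B.

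Jra, which encodes Jun (FBgn0001291, dm6 chr2R:10096480-10098556, plus strand), had no peak in its gene body or at its start sites. The window held 4 candidates, of which 2 passed, both beyond the 3′ end of the gene and close to 14-3-3zeta, which encodes a phosphoserine-binding adaptor protein. The promoter peak of 14-3-3zeta, chr2R:10100852-10101039, had its summit 94 bp upstream of that gene's start and 4014 bp downstream of the nearest Jra start. It ranked 113 in list A (signal 191.7) and 181 in list B (signal 209.6), with a pooled signal of 396.8 at rank 141, the second highest of the 15 peaks. The intronic peak, chr2R:10101667-10101745, lay 682 bp downstream of the 14-3-3zeta start and ranked 702 in list A (signal 85.9), 485 in list B (signal 131.8) and 441 in the pooled list (signal 235.8).

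At the start sites of Jra itself, at 10096480 (Jra-RB) and 10096928 (Jra-RA and Jra-RC), no pooled candidate lay within 500 bp. List A had a region there at rank 16963 with a signal of 13.1, and list B had one at rank 9024 with a signal of 27.8. In these lists, peaks thus lay at 2 start sites of kay and at none of Jra. Of all protein-coding genes, 8.81% had a peak at an own start site, so its absence from Jra is the common case. kay is also longer, at 28119 bp with 4 start sites, against 2077 bp with 2 start sites for Jra. No contrast between the AP-1 partners is drawn from these counts. With the window reduced to 2 kb on each side, or to the gene body, Jra had 0 peaks, whereas kay kept 4.

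puc, which encodes the JNK phosphatase Puckered (FBgn0243512, dm6 chr3R:8105332-8122294, plus strand), had the most peaks of the 7 genes, 6 of 23 candidates. At 0.223 peaks per kb of window it was denser than kay, which had 0.105 per kb. All 6 lay inside the gene body, 3 at its own starts and 3 in intron 3. Of all protein-coding genes, 99.5% had fewer peaks than puc and 98.3% had fewer than kay. Long genes have wider windows, and among the 1985 protein-coding genes of at least 10 kb, 3.07% had 6 or more peaks and 8.11% had 4 or more.

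Both annotated starts of puc had peaks. At the puc-RA start, chr3R:8105238-8105481 had its summit 28 bp downstream and ranked 2244 in list A (signal 41.4) and 809 in list B (signal 99.4), with a pooled signal of 130.7. The puc-RB start had one peak on either side, the upstream one being the stronger. The peak 236 bp upstream of puc-RB, chr3R:8106172-8106297, ranked 243 in list A (signal 144.8) and 433 in list B (signal 139.5), with a pooled signal of 292.0. The peak 190 bp downstream, chr3R:8106556-8106799, ranked 1633 in list A (signal 50.8) and 1235 in list B (signal 77.0), with a pooled signal of 113.2.

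The highest signal of puc was in intron 3, 13510 bp downstream of the puc-RB start. This peak, chr3R:8119963-8120081, ranked 335 in list A (signal 125.2) and 376 in list B (signal 151.0), with a pooled signal of 304.3 at rank 259. The nearest annotated start was that of CG7878, 2727 bp away, and the sequence within 100 bp of the summit held both a GAGAGAG and a TGACTCA. A weaker peak in the same intron, chr3R:8118682-8118925, ranked 1549 in list A (signal 52.6) and 3265 in list B (signal 43.7), with a pooled signal of 82.4. The remaining peak, chr3R:8114111-8114354, lay 230 bp upstream of the start of lncRNA:CR44331, which is inside puc intron 3, and ranked 1079 in list A (signal 66.0) and 2115 in list B (signal 55.3), with a pooled signal of 106.4. This peak held a TGAGTCA between 50 and 100 bp from its summit. The CTCTCTC at the left end of its printed sequence crosses the edge of the 100 bp window, with 1 base outside it, and was not counted as a match.

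**Figure D1:**
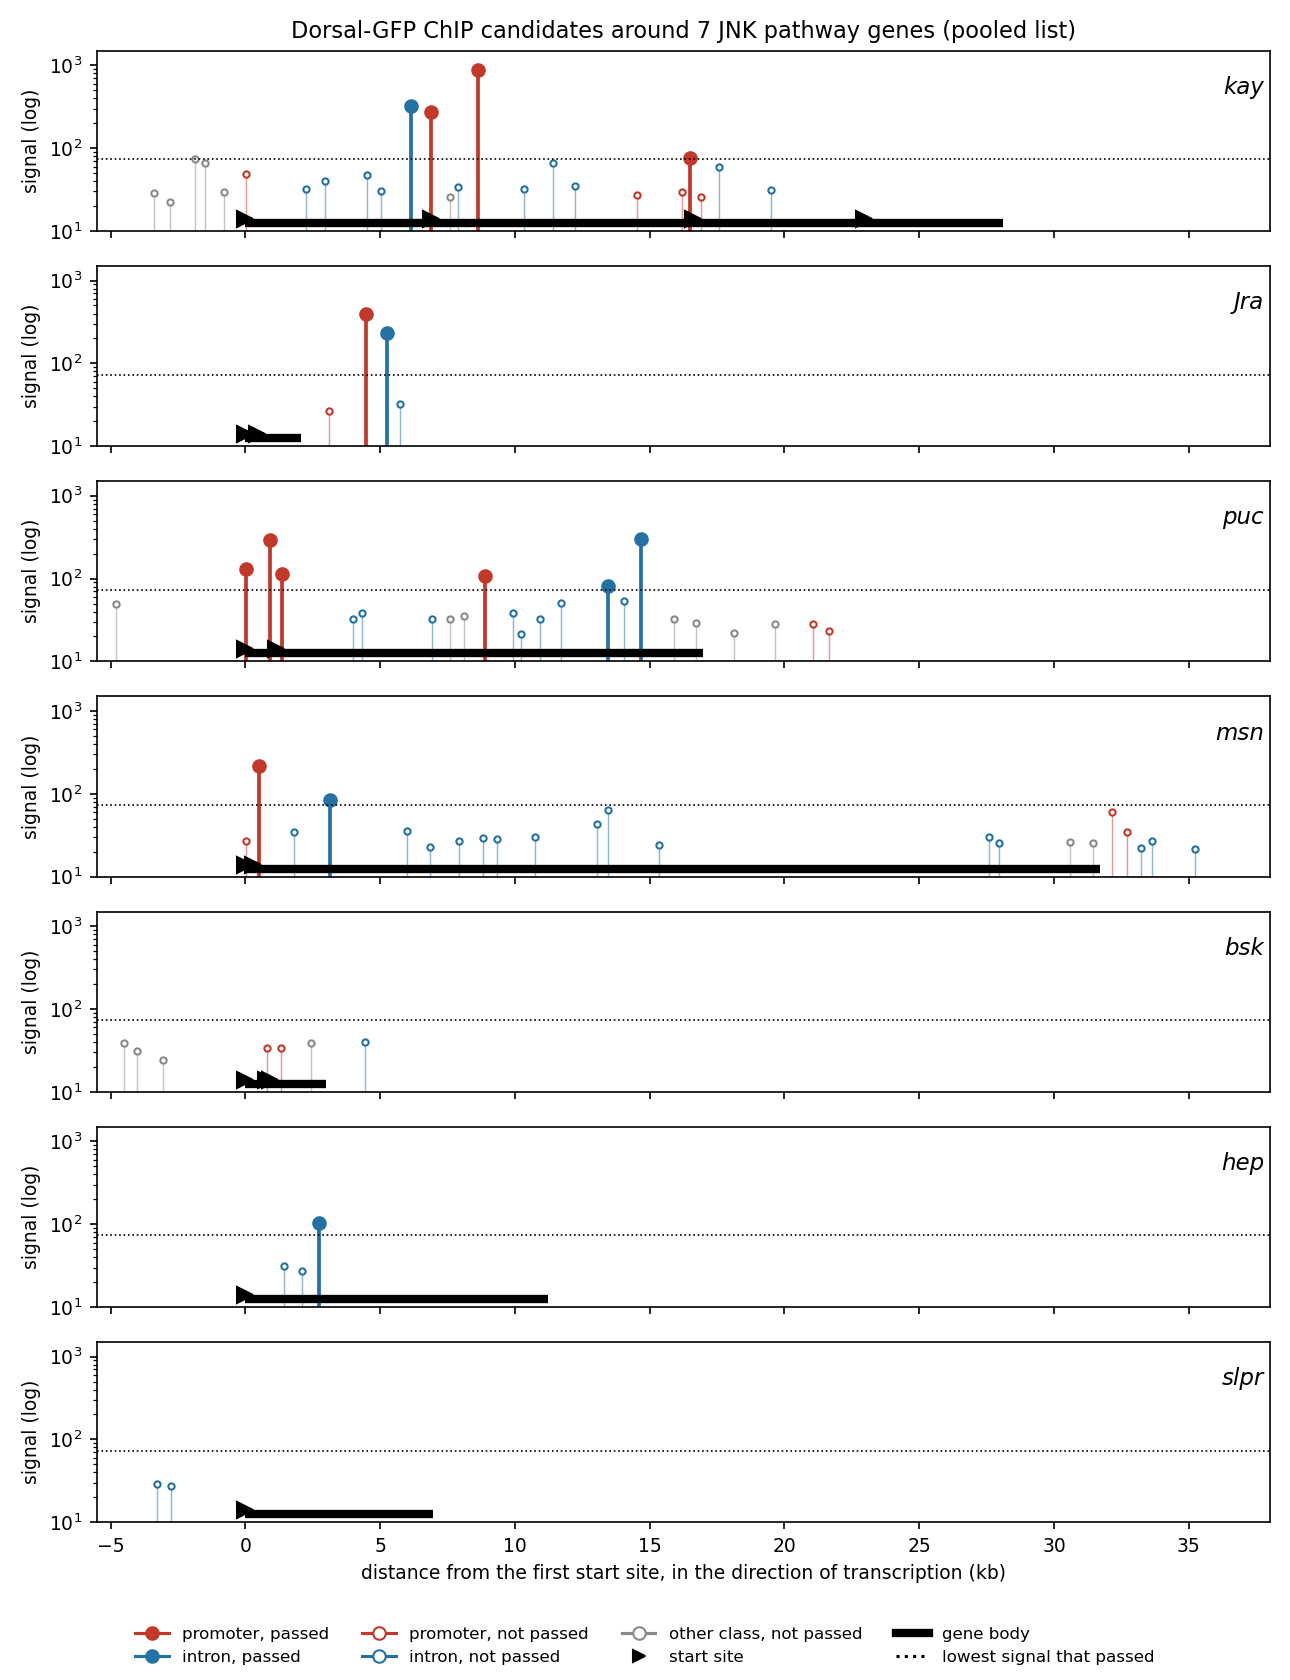
Candidates of the pooled list around the 7 genes, plotted as signal on a log axis (y) against distance from the first start site in the direction of transcription in kb (x). Filled points passed the authors' threshold and open points did not, red marks promoters, blue introns and grey other classes, black bars are gene bodies, triangles are start sites and the dotted line is the lowest signal that passed. kay, puc and msn have filled points inside the gene at start sites, both filled points of Jra lie beyond its gene body, and bsk and slpr have open points only.

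The kinase genes had fewer peaks, 3 among the 4 genes. msn, which encodes the most upstream kinase of the 4 (FBgn0010909, dm6 chr3L:2554847-2586540, minus strand), had 2 peaks among 22 candidates, although its window is the longest, at 41.7 kb. Its promoter peak, chr3L:2585961-2586045, had its summit 239 bp downstream of the start of msn-RF, and ranked 571 in list A (signal 95.7) and 510 in list B (signal 127.5), with a pooled signal of 218.8. The summit was 525 bp from the start used by the other 7 annotated transcripts, where only a candidate of signal 26.8 at rank 17995 was found. The second peak, chr3L:2583273-2583516, lay in intron 2 of all 8 transcripts and was the single one of the 15 without a matching region in list A. It ranked 1429 in list B (signal 70.7) and 2222 in the pooled list (signal 83.4).

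hep, which encodes the kinase that phosphorylates Basket (FBgn0010303, dm6 chrX:13079205-13090434, minus strand), had 1 peak, in intron 1 of its 7 transcripts. The peak, chrX:13087580-13087823, lay 2732 bp downstream of their shared start and ranked 2236 in list A (signal 41.4) and 1458 in list B (signal 69.9), with a pooled signal of 102.3. At the start itself the best regions ranked 18422 in list A and 9641 in list B, and no pooled candidate lay within 500 bp.

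Neither of the other 2 kinase genes had a peak in its window. bsk, which encodes JNK (FBgn0000229, dm6 chr2L:10247502-10250501, minus strand), had 7 candidates, of which the highest had a signal of 40.3 at rank 7510. At the starts of bsk-RF and bsk-RE lay a candidate with a signal of 33.5 at rank 11104 and, within reach of bsk-RE only, one with a signal of 33.4 at rank 11199. The best regions there ranked 22580 in list A and 2956 in list B. slpr, which encodes the kinase that acts on Hemipterous (FBgn0030018, dm6 chrX:8170229-8177185, minus strand), had 2 candidates, both upstream of the gene, with the higher at a signal of 28.9 and rank 15344. No region of any list lay within 500 bp of its single start. Of all protein-coding genes, 76.9% had no peak in a window of this kind, so 0 peaks is the common case.

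Over the 7 genes, 15 distinct start sites were annotated, of which 5 had a peak within 500 bp, 9 had a candidate and 6 had neither. The 5 with a peak were those of kay-RA/RG, kay-RB, puc-RA, puc-RB and msn-RF. No share over all annotated start sites is given beside these counts, and the 8.81% above is a share of genes. When as many best regions were taken from a single list as the thresholded list holds, kay, puc and msn were also the 3 genes with a region at an own start, both in list A (8.66% of all protein-coding genes) and in list B (9.26%).

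Promoter candidates passed the threshold more often than intronic ones in these windows, as they did over all arms. Of 21 promoter candidates, 9 passed (42.9%, 95% Clopper-Pearson interval 21.8 to 66.0%), against 20.3% of the 7330 promoter candidates on all arms. Of 45 intronic candidates, 6 passed (13.3%, interval 5.05 to 26.8%), against 5.97% of 13448 on all arms. Over all classes, 15 of 85 candidates in the windows passed (17.6%, interval 10.2 to 27.4%), against 8.98% of the 29970 on the arms. The candidates are clustered, with 10 of the 15 peaks in kay and puc, so these intervals are descriptions and no test against all arms. With a 1000 bp promoter window 30.6% of the promoter candidates passed, and with signals at or above the median 28.6% of the promoter and 6.67% of the intronic candidates were left. No share over all arms is given for these settings. Promoter candidates at a start of the member passed in 6 of 12 cases, and those at a start of another gene only in 3 of 9. The 5 intergenic, 8 coding exon, 4 untranslated exon and 2 other exon candidates did not pass. Over all arms, the shares of these classes that passed ran from 1.47% of coding exon to 14.8% of 5′ untranslated exon candidates. Intergenic candidates passed in 4.63% and other exon candidates in 8.08%. The 5′ untranslated exon share is above the 8.98% over all classes, but the windows held only 1 candidate of that class. With so few candidates in the windows, their absence from the peaks is the common case and is not read as a trait of these genes.

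Of the 9 promoter peaks, 6 were at a start of kay, puc or msn and 3 at a start of another gene, which were lncRNA:CR46110, lncRNA:CR44331 and 14-3-3zeta. Of the 6 intronic peaks, 5 lay inside a member gene and 1 in 14-3-3zeta. The promoter class took precedence, so a promoter summit could also lie in an intron. Examples were both puc-RB peaks, in intron 1 of puc-RA, and the msn promoter peak, in intron 1 of all 8 transcripts. The promoter peaks ran from 76.9 to 886.9 with a median signal of 218.8, against a median of 126.9 over the 1491 promoter peaks on the arms. The intronic peaks ran from 82.4 to 319.4 with a median of 169.0, against 113.6 over 803 on the arms. The range of the intronic peaks lay within that of the promoter peaks.

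**Figure D2:**
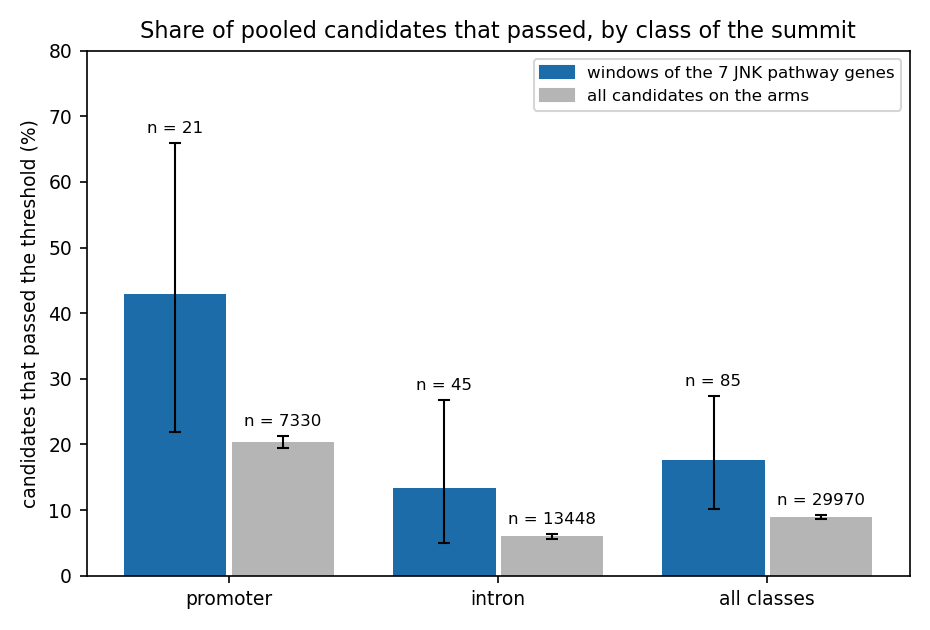
Share of pooled candidates that passed the authors' threshold in percent (y) by class of the summit (x), in the windows of the 7 genes (blue) and on all arms (grey), with exact 95% intervals and the number of candidates above each bar. The promoter bars stand at 42.9% and 20.3%, and the intron bars at 13.3% and 5.97%.

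The single-replicate lists placed most of the peaks similarly. A candidate of list A covered the summit of 14 of the 15 peaks, and a candidate of list B that of all 15. Of the 15, 13 were among the 2690 best regions of both lists (86.7%, interval 59.5 to 98.3%), against 58.3% of all thresholded peaks on the arms. The exceptions were the msn intron 2 peak, absent from list A, and the weaker puc intron 3 peak, at rank 3265 in list B. The pooled and thresholded lists were made from the same alignments, so some of this overlap is built in. The 15 peaks also had a higher median signal than all arm peaks (218.8 against 118.7), which the comparison with all arms does not take into account. Most of the 15 lie in kay and puc, so the interval is a description only. Spearman's rho between the ranks in the 2 lists was 0.88 over the 14 peaks found in both, and 0.58 over the 2480 such peaks on the arms. Of these 14 peaks, 7 ranked higher in list A and 6 in list B, and the strongest kay peak had the same rank in both.

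A few regions were among the best of a single list without passing the threshold. In list A these were a kay intron region at rank 2463 and a puc intron region at rank 2137, with pooled ranks of 7711 and 4413. In list B they were 2 intergenic regions upstream of kay, at ranks 1658 and 2509, and an msn intron region at rank 2610, whose pooled rank was 3301. None of these 5 lay within 500 bp of a start site.

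**Figure D3:**
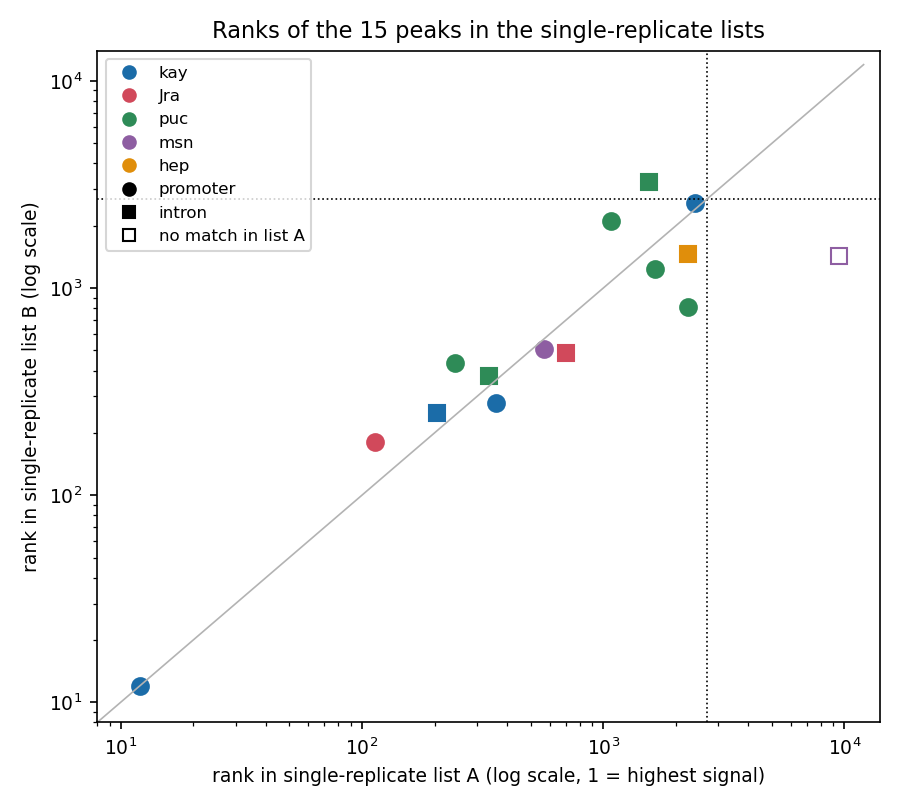
Rank of each of the 15 peaks in single-replicate list A (x) and list B (y), on log axes with 1 as the highest signal, coloured by gene, with circles for promoters and squares for introns. The dotted lines mark rank 2690 and the grey line equal ranks. The strongest kay peak sits at rank 12 in both lists, and the open square, drawn at an arbitrary place on the x axis, is the msn intron 2 peak with no match in list A.

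The peaks also differed in width and in sequence. The most common width over all arms was 244 bp, and 7 of the 15 peaks had that width, with signals of 76.9 to 130.7. The other 8 were narrower, 79 to 204 bp, with signals of 218.8 to 886.9, so the signal ranges of the width groups did not overlap. All 8 narrower peaks held GAGAGAG within 100 bp of the summit, and of the 7 peaks of 244 bp only the hep peak did. The uncounted match at lncRNA:CR44331, in another of the 7, missed the window by 1 base. This grouping was made after the values were seen. Over all arms, narrower peaks also had higher signals than those of 244 bp, with medians of 260.3 over 695 and 100.9 over 1976. They also more often held the repeat (66.2% against 36.1%). Their signal ranges overlapped there, with narrower peaks from 77.6 upwards and those of 244 bp up to 666.3. The 19 arm peaks wider than 244 bp had the highest median signal, 641.4, and 42.1% of them held the repeat.

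In all, 9 of the 15 peaks held GAGAGAG (60%), against 43.9% of the 2690 peaks on the arms and 4.68% of 19275 protein-coding start sites searched in windows of the same length. In the sequences above, the matches next to the summits of the msn promoter peak and the kay peak upstream of kay-RA/RG are centred 2 and 3 bp from the summit. The AP-1 sequence TGANTCA was found at 2 peaks, both in puc intron 3, against 4.09% of all peaks and 3.79% of start sites. A loose kappaB pattern, GGG and CC with any 5 bases between them, was found at 3 peaks, the kay-RB promoter peak, the kay peak upstream of kay-RA/RG and the weaker puc intron 3 peak, against 11.7% of all peaks and 8.61% of start sites. The dl motif, a stricter form that overlaps the last pattern, was found at 2 of those 3, the kay-RB and puc peaks, which are among the 3 weakest of the 15, against 1.52% of all peaks and 1.12% of start sites. CACGTG, which stands for an E-box, was found at 0 of the 15, against 3.64% of all peaks. Such matches describe letters in a window and do not show binding by a given factor.

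**Figure D4:**
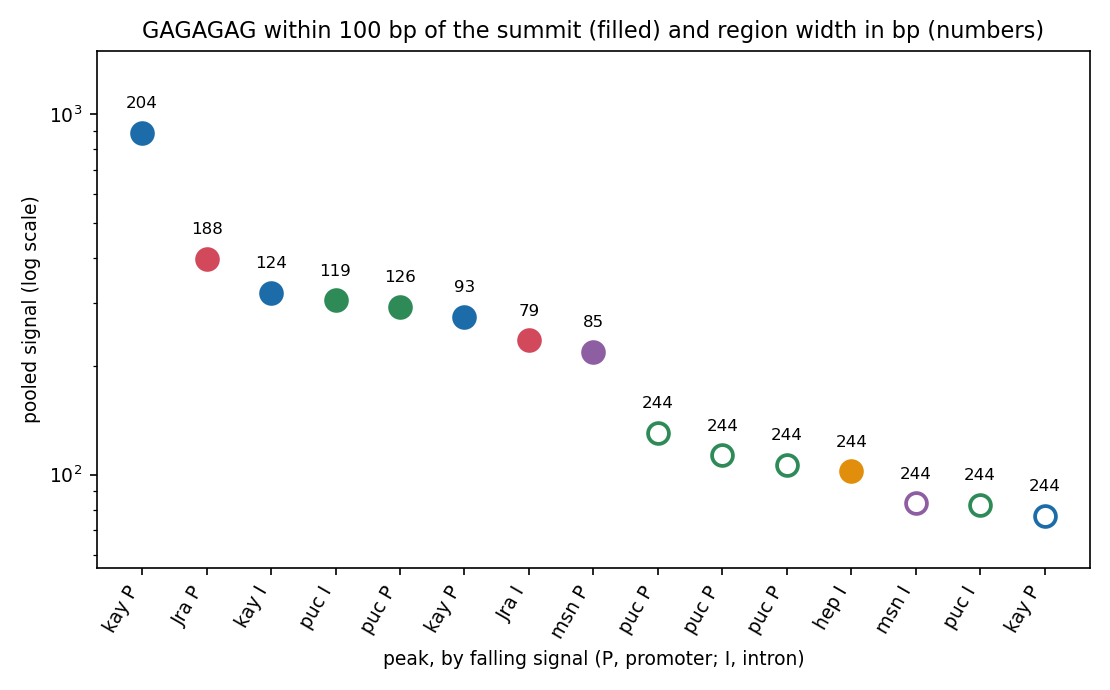
Pooled signal on a log axis (y) of the 15 peaks in order of falling signal (x, with P for promoter and I for intron), coloured by gene, filled where GAGAGAG lies within 100 bp of the summit, with region width in bp above each point. The 8 leftmost points, from 886.9 to 218.8, are all filled and narrower than 244 bp, and of the 7 others only that of hep is filled.

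The wider pathway was described with a list of 38 other genes grouped by role, which was drawn up with earlier results of these data known. Of these, 14 had a peak within 500 bp of a start site (36.8%, interval 21.8 to 54.0%), against 8.81% of all protein-coding genes. A peak in the 5 kb window was found at 23 of the 38 genes, a count, whereas 23.1% of all protein-coding genes had one. At 11 of the 38 genes no pooled candidate lay at a start site. The only ligand listed, egr, the fly tumour necrosis factor, had a promoter peak with a signal of 159.7 at rank 856. Neither of its receptors, grnd and wgn, had one, nor did any of the 3 adaptors, which include Traf4 and Traf6.

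Among 4 further MAP3K genes, which act at the level of slpr, 3 had a promoter peak, against 8.81% of all protein-coding genes. slpr itself had none, which is the common case, and no contrast with it is drawn. The promoter peak of wnd, a kinase of the response to axon injury, had a signal of 331.7 at rank 221. That of Tak1, which also serves the Imd immune pathway, had a signal of 129.4 and differed between the lists, with rank 8666 in list A and rank 673 in list B. Ask1 had none. Mkk4, which acts beside hep, had no candidate at its start in any list. Of 5 GTPase genes, 2 had a promoter peak, Rac2 (signal 273.9, rank 326) and Rho1 (signal 202.3, rank 562), and Rac1 and Mtl were among those without. In the tyrosine kinase branch Src42A had one (signal 166.4), and Src64B and Shark did not. None of the 3 scaffold genes, such as POSH and Aplip1, had a promoter peak. The same held for the 3 deubiquitinase and phosphatase genes, such as CYLD and Mkp. Since 8.81% of all protein-coding genes had one, its absence from 3 genes is the common case. No contrast with the phosphatase gene puc is drawn from it.

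Of 4 other transcription factor genes, aop, which encodes the ETS repressor Yan (signal 179.8, rank 697), and Ets21C (signal 103.8, rank 1627) had a promoter peak, and Atf3 and Atf-2 did not. Of 8 target genes, 5 had one, led by chic, which encodes profilin (signal 381.9, rank 151), and hid, which promotes cell death (signal 130.3, rank 1180). Mmp1, a matrix metalloproteinase gene, and Ilp8, which encodes a relaxin-like peptide that delays metamorphosis after disc damage, were among those without. Among the promoter peaks of the 38 genes, that of chic had the highest signal. It and the wnd peak (331.7) were above the highest peak at a start of kay itself (274.5). The strongest kay peak (886.9) is at the start of lncRNA:CR46110 and is not counted by this measure.

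**Figure D5:**
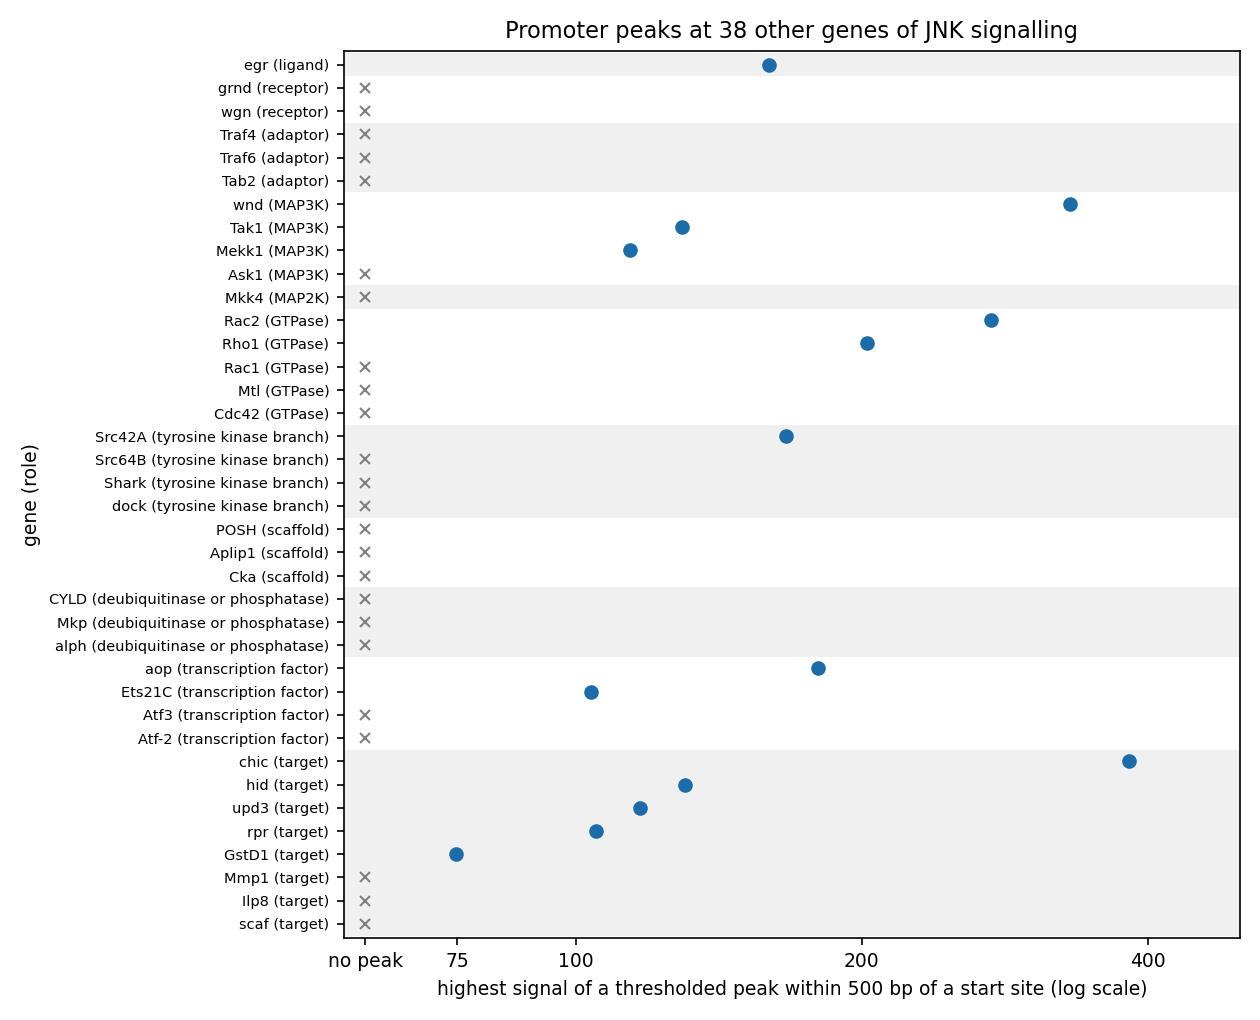
Highest signal of a thresholded peak within 500 bp of a start site, on a log axis (x), for each of 38 other genes of JNK signalling with its role (y). Circles are genes with such a peak and crosses at the left edge are genes without one. The 14 circles run from 74.8 to 381.9 for chic, and no receptor, adaptor or scaffold gene has one.

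By 4 measures (number of peaks in the window, highest signal, share of peaks at promoters and gene length), the genes most like kay among 3228 protein-coding genes with a peak were ps, sd and Pde8. Their distances from kay over the standardised measures were 0.33, 0.67 and 0.76. ps, which encodes the RNA-binding protein Pasilla, had 4 peaks, 3 of them at promoters as in kay, with a highest signal of 763.6. sd, which encodes the partner of Yorkie in the Hippo pathway, had 4 promoter peaks with a highest signal of 780.2. Pde8, a phosphodiesterase gene, had 3 peaks, 2 at promoters, with a highest signal of 727.0.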

How the data were processed

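Region lists in dm6 from 1 group of 2 ChIP-seq replicates were used as the authors deposited them: a candidate list per replicate (30000 and 29999 regions), a pooled candidate list and a list thresholded by irreproducible discovery rate, per the deposited description files. The aligner, the caller, their versions and the threshold were not given in the sources used here. The deposited signal is the caller's enrichment over control, and the deposited −log10 q-value was not used for ranking because many regions share its highest value. The files hold no reads, so depth is unknown, and intervals (exact Clopper-Pearson, 95%) cover counting of regions only. Nothing links lists A and B to replicate numbers.

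Genes and start sites came from the Ensembl annotation, release 115 (BDGP 6.54), after removal of pseudogenes and transposable elements. Bases were read from the RefSeq release 6 genome. Regions off the arms (28 of the thresholded list) were left out of ranks and shares. A summit within 500 bp of any start site was a promoter, then exon classes, intron or intergenic. A match between lists means that the peak summit lay inside the other list's region. A single group allowed no test between groups, so values are set beside all genes or regions. The members, gene lists and measures were chosen with earlier results of these data known. Named are the 7 genes, genes with the nearest start to their peaks, up to 2 genes per role with and 2 without a promoter peak, and the 3 genes most like kay. Sequences of 2 puc promoter peaks that lie mostly in untranslated exons are not shown. Python 3.11.15, NumPy 2.4.6, SciPy 1.17.1 and matplotlib 3.10.9 were used. The promoter and exon classes were tested on planted positions, and the search for GAGAGAG on planted matches.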

Additional observations from a re-analysis of the deposited data

How the results depend on the processing

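The number of genes with a peak at an own start site stayed at 3 under every alternative run (promoter windows of 250 and 1000 bp, signals at or above the median, protein-coding transcripts only, and list A or list B alone). Requiring a signal at or above the median left 9 of the 15 peaks and 9 of the 14 other pathway genes with a promoter peak, by construction. With a single list in place of the thresholded one (leave-one-out), the windows held 16 to 17 regions, 14 to 15 other pathway genes had a promoter region, and the best ranks were 12 to 12 for kay, 113 to 181 for Jra, 335 to 376 for puc, 510 to 571 for msn and 1458 to 2236 for hep. With the 1000 best regions of each list, 53.3% of the 15 peaks were among the best of both, and 60% were when 50% of each region had to overlap. The 58.3% over all arms belongs to the summit rule with the 2690 best regions. No share over all arms is given for these alternatives, so the difference from all arms is not shown to hold under them. The share of promoter candidates that passed ranged from 28.6% (signal at or above the median) to 53.3% (250 bp window), and that of intronic ones from 6.67% to 13.3%. These alternative shares also have no value over all arms beside them. Jra had 0 peaks with the gene body alone or 2 kb on each side. Motif counts of 5 or fewer depended on the window. TGANTCA was found at 1 peak within 50 bp and at 4 within 250 bp, and the loose kappaB pattern at 5 within 250 bp. The dl motif was found at 1 within 50 bp and CACGTG at 2 within 250 bp. The windows are nested around the same summits, so a wider window can only add matches. GAGAGAG was found at 9 peaks within 50 bp and at 10 within 250 bp, the added one being at lncRNA:CR44331. No paired analysis was possible because there was 1 group and no test.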
